A study of Homo sapiens with 8 samples.

Results

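Long intergenic noncoding RNAs named LINC plus a number were read out in RNA sequencing of U2OS cells after knockdown of MePCE. Of the 80311 gene intervals in the deposited count table, 2191 carried a symbol made of LINC and digits only. They bore 2176 distinct symbols, 15 of which stood on 2 intervals. No other interval of the table overlapped 573 of them, called stand-alone here, whereas 1618 (73.8%) were overlapped by at least 1 other interval, as were 75.0% of all intervals. The overlapping intervals include noncoding ones: the largest of them was protein coding for 213 members. GENCODE 29 listed 2168 of the identifiers and typed 1973 as lincRNA, 90 as antisense and 12 as protein coding. The intervals had a median length of 27.9 kb (11.5 kb for the stand-alone members, 27.7 kb for protein-coding genes) and included introns. In GENCODE 29 the median member had at most 3 exons and a longest spliced length of 963.5 bases.

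The study used 2 derivatives of U2OS, a human osteosarcoma line, in 4 groups of 2 libraries: U2OS-Flp-In-TREx (Flp-In here) with the control siRNA siNC or with siMePCE, and U2OS AsiSI (AsiSI here) with siNC or with siMePCE. Each culture received its siRNA at 0 h and again at 48 h, with lysis at 96 h. AsiSI cells, which hold a restriction enzyme that 4-OHT sends to the nucleus to cut DNA, were treated in both siRNA groups with 300 nM 4-OHT for 4 h from 92 h. No 4-OHT is stated for Flp-In cells, so the cell line and 4-OHT cannot be told apart. Whether either line is 1 clone is not given in the sources used here. Nothing in the labels states separate cultures for the 2 libraries of a group, and p-values therefore reflect the spread between libraries alone.

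MePCE caps and stabilises the 7SK RNA, the scaffold that holds the kinase P-TEFb inactive, and P-TEFb releases paused RNA polymerase II into elongation. Long noncoding RNAs are made by the same polymerase, are often spliced poorly, stay largely in the nucleus and are in many cases removed quickly by the nuclear exosome. Transcription that does not stop at the end of a gene, and weak transcription in the stretches between genes, can also place reads in intervals that carry a LINC name. Counts over whole intervals do not separate these sources.

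RefSeq start windows (GRCh38.p14, 250 bases before to 50 after the start) matched 1048 of the tested members by symbol. Printed are 7 whose RNAs are among those described below. Only windows with a match to a motif are printed, so these 7 do not show how common matches are. The windows of other members described below, such as LINC02064, LINC02661 and LINC00165, hold none of the motifs searched. A GENCODE 29 transcript held the first 25 bases after the start in 707 of 1036 members that could be compared, and none held them reversed. Of the 7 shown, this was the case for all but LINC02009. The windows lie at chr5:40240097-40240396 (plus strand) for LINC00604, chr13:58165577-58165876 (plus) for LINC02338, chr4:189659356-189659655 (plus) for LINC01262, chr3:46423618-46423917 (minus) for LINC02009, chr18:14946017-14946316 (plus) for LINC01443, chr21:22098410-22098709 (minus) for LINC01687 and chr21:22098367-22098666 (plus) for LINC00308. Capitals mark matches on either strand to the AP-1 motif TGANTCA, the E-box CACGTG or the TATA motif TATAAA.
LINC00604: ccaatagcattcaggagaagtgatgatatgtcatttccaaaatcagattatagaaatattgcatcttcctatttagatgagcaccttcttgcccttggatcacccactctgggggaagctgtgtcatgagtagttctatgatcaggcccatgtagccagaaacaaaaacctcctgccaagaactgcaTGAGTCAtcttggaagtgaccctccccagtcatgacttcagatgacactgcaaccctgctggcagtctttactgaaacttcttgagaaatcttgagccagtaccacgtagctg
LINC02338: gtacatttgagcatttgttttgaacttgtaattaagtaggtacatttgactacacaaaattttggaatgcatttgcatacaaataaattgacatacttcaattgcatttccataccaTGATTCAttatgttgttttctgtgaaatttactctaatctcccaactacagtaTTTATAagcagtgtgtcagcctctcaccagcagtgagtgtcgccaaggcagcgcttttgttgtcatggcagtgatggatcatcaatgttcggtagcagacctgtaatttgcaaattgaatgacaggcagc
LINC01262: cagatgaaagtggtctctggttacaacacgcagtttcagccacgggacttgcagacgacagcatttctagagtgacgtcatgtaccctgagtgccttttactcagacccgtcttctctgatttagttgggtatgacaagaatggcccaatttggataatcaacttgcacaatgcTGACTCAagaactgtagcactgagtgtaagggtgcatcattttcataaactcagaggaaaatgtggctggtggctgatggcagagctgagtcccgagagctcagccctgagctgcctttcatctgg
LINC02009: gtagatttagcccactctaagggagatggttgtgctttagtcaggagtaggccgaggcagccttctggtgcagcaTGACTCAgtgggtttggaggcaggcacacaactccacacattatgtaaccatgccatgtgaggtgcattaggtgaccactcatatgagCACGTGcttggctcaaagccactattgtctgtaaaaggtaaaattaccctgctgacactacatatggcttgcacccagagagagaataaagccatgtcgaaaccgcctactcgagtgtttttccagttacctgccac
LINC01443: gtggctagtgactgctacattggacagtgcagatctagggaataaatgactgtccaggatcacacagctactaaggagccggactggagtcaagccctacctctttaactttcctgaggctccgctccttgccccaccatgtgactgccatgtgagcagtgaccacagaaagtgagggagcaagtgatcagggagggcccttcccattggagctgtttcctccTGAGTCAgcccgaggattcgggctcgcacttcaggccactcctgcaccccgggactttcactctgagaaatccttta
LINC01687: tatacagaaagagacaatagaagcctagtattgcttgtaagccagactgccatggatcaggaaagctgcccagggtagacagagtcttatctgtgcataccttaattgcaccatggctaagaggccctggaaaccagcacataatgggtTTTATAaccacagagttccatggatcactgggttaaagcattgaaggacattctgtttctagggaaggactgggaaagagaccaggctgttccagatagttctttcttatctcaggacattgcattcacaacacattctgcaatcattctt
LINC00308: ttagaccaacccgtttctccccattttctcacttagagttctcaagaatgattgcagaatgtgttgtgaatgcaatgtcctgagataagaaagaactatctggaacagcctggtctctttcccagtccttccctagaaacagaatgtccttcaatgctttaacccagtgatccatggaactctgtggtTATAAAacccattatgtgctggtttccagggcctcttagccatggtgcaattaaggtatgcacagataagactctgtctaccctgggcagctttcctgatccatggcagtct

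The first 5 windows hold AP-1 letters, in members that rose (LINC00604, LINC02338) as well as in members that fell (LINC01262, LINC02009, LINC01443). The match begins 63 bases before the start in LINC00604, 133 in LINC02338, 76 in LINC01262, 175 in LINC02009 and 27 in LINC01443. TGANTCA was in 7.76% of 27305 RefSeq windows, in 15.1% of the 1048 windows of tested members, in 18.6% of 167 windows of members called higher in both lines and in 17.1% of 70 windows of members called lower in both. LINC01687 and LINC00308 point away from each other: their windows share 257 bases, 157 bases separate their starts, and the 1 TATAAA match lies at the same place in both. TATAAA was in 16.98% of windows of tested members and in 11.95% of all windows. The AsiSI recognition site GCGATCGC was in 1 tested member's window (0.0954%) and in 0.205% of all windows. CACGTG was in 4.77% of the members' windows, TTTCCCGC, an E2F motif, in 1.15%, and a 10-base NF-kB consensus in 6.68%. Of all windows, 7.43%, 1.66% and 10.8% held them in that order. Matches of different motifs were allowed to overlap. A match is a description of letters, and binding was not measured. The median GC content was 47.3% for tested members against 58.3% for all windows, 44.0% for members higher in both lines and 54.3% for members lower in both.

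Libraries held 41431776 to 53695626 counts, of which the members took 1.26% to 1.74% and the stand-alone members 0.0992% to 0.170%. Counts could be tested for 1615 members (309 stand-alone, 1306 overlapped) of 43321 intervals in all, whereas 576 members were too low and 33 of these had no count in any library. MEPCE fell from 1712 and 1676 counts to 264 and 234 in Flp-In and from 1405 and 1542 to 162 and 102 in AsiSI. RN7SK, the 7SK RNA, averaged 11110 CPM (counts scaled to library size by TMM) in Flp-In controls and 2247 after knockdown, and 7854 and 1598 in AsiSI. Mitochondrial genes took 5.23% to 5.91% of counts under siNC and 8.24% to 10.55% under siMePCE. In a fit without mitochondrial, 7SK, 7SL and ribosomal RNA intervals, 164 calls of members named below were kept and 1 was lost. The part of mitochondrial genes in the results below was not otherwise tested. Of mesenchymal and osteoblast markers, VIM averaged 893 CPM, SPARC 397 and RUNX2 36.2, whereas ALPL, BGLAP, COL1A2 and SP7 were at 0.687, 0.409, 0.374 and 0.360 CPM. Of 4 mesenchymal markers 3 fell in each line, and the remaining one, CDH2, rose in AsiSI (log2 0.37). Of 8 osteoblast markers 4 fell in Flp-In, while 1 fell and 1 rose in AsiSI. Of 4 tested epithelial markers, KRT8 and KRT18 averaged 113 and 68.6 CPM, whereas EPCAM and CDH1 averaged 4.47 and 4.01 CPM. The 4 haematopoietic markers summed to at most 7.57 CPM and the 3 endothelial ones to at most 7.30 CPM in any library.

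After MePCE knockdown more members rose than fell in both lines, the reverse of the table as a whole. In Flp-In 430 members (26.6%) were called higher and 223 (13.8%) lower at an adjusted p under 0.05, against 18.1% and 22.8% of all tested intervals. In AsiSI 461 members (28.5%) were called higher and 138 (8.54%) lower, against 16.8% and 21.4%. The median log2 fold change of the members was 0.45 in Flp-In and 0.53 in AsiSI, against 0.03 and 0.04 for all tested intervals. Among 309 stand-alone members 62 (20.1%) rose and 33 (10.7%) fell in Flp-In (median 0.58). In AsiSI 69 (22.3%) rose and 20 (6.47%) fell (median 0.65). Of all tested intervals that no other interval overlaps, 17.7% rose and 19.6% fell in Flp-In, and 16.4% and 18.1% in AsiSI. The share of stand-alone members that rose in Flp-In was thus near that of other intervals, and the share that fell was lower. These shares are not matched for level. Under a mean of 0.01 CPM per kb of interval, 0 of 96 stand-alone members were called lower in either line. From 0.3 CPM per kb, 35% of 40 stand-alone members fell in Flp-In, against 34.1% of 2633 intervals that no other interval overlaps. The lower share of falls in Flp-In was not seen in that upper class. In AsiSI the shares of falls there were 25% and 36.8%. Genes named as antisense to another gene fell more often than they rose. In Flp-In 260 (16.5%) were higher and 429 (27.2%) lower, and in AsiSI 226 (14.3%) and 389 (24.6%). Divergent transcripts, named -DT, had 64 higher and 131 lower in Flp-In and 65 and 114 in AsiSI. Without replicate 2 of Flp-In siMePCE the members called higher in Flp-In dropped to 227 (29 stand-alone), and without replicate 1 of Flp-In siNC to 245 (36). Without replicate 2 of AsiSI siMePCE those called higher in AsiSI dropped to 304 (44), and without replicate 2 of AsiSI siNC the stand-alone members called lower there dropped to 13.

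The Flp-In and AsiSI knockdown comparisons share no library. In both, 251 members were called higher (15.5%, against 10.2% of all intervals) and 100 lower (6.19%, against 16.1%). The 251 made up 58.4% of the Flp-In rises and 54.4% of the AsiSI rises, against 56.5% and 60.9% over all intervals. The 100 made up 44.8% of the Flp-In falls and 72.5% of the AsiSI falls, against 70.5% and 75.1% over all intervals. A further 15 members were called in opposite directions, all of them lower in Flp-In and higher in AsiSI. Of all 43321 intervals 199 were, 138 of them in that direction and 61 in the other. Without replicate 2 of Flp-In siMePCE 159 were called higher in both. Across the 1615 members the log2 fold changes of the lines had a Pearson r of 0.583 and a Spearman rho of 0.627, a description of intervals that share libraries within each line. The plot of called shares shows the same balance for stand-alone members.

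**Figure D1:**
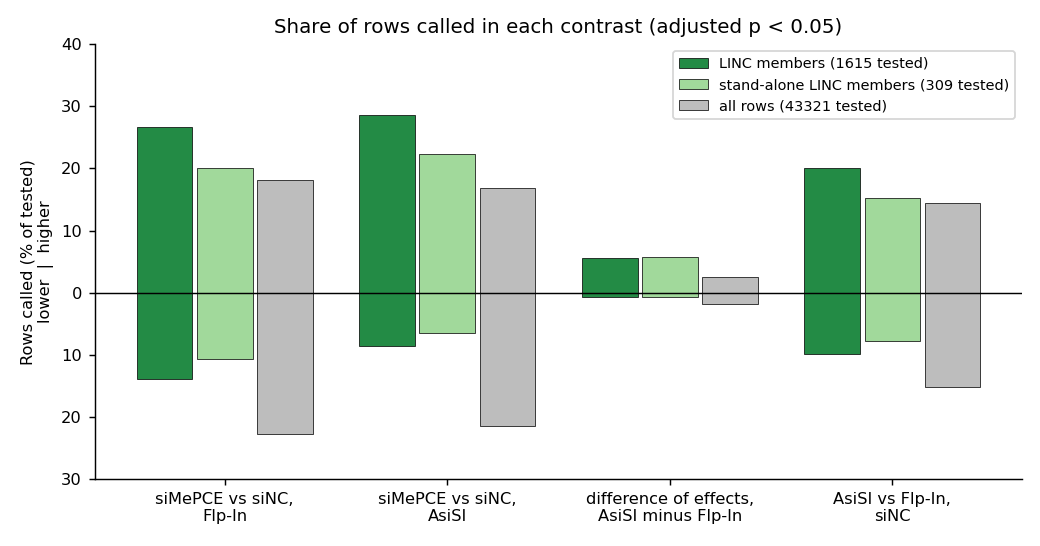
Percent of tested intervals called higher (above 0) and lower (below 0) in each of 4 contrasts, for all LINC members, stand-alone LINC members and all intervals. In both knockdown contrasts the LINC bars reach higher than the grey bars above 0 and end short of them below 0.

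The rise went with a low level per length, among LINC members and among all intervals alike. Members were sparse: the median tested member had 1.14 CPM, or 0.0245 CPM per kb of interval, against 0.210 CPM per kb for all tested intervals and 0.426 for protein-coding genes. Below 0.01 CPM per kb the median log2 fold change was 1.18 in Flp-In and 0.80 in AsiSI over 414 members, and 1.14 and 0.80 over 3819 intervals of any kind. From 0.3 CPM per kb it was -0.24 and -0.05 over 171 members, against -0.11 and -0.21 over 18679 intervals. In that upper class 31 members (18.1%) rose and 64 (37.4%) fell in Flp-In, near the 17.8% and 33.2% of all intervals of the class. In AsiSI 45 (26.3%) rose and 51 (29.8%) fell, against 12.2% and 36.1%. The filter keeps a sparse member if 1 group reaches the minimum, so those medians over tested members carry the filter.

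Sums over all 2191 members, with no filter, gave the same order. The 835 members under 0.01 CPM per kb summed to 173 and 214 CPM in the Flp-In controls against 333 and 473 after knockdown, a ratio of means of 2.08. In AsiSI they summed to 207 and 298 CPM under siNC and to 332 and 529 under siMePCE, a ratio of 1.71. The siMePCE libraries lay above the siNC libraries of their line in both cases, while replicate 2 was the higher one in every group. For the 172 members of at least 0.3 CPM per kb the ratio was 1.00 in Flp-In (7192 ± 255 to 7197 ± 143 CPM, SD, n = 2) and 1.20 in AsiSI (7614 ± 351 to 9143 ± 204 CPM). All members together summed to 12832 ± 439 and 13082 ± 179 CPM in Flp-In and to 13728 ± 537 and 17051 ± 234 CPM in AsiSI. The 10 highest members held 25.9% of the summed CPM of tested members.

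**Figure D2:**
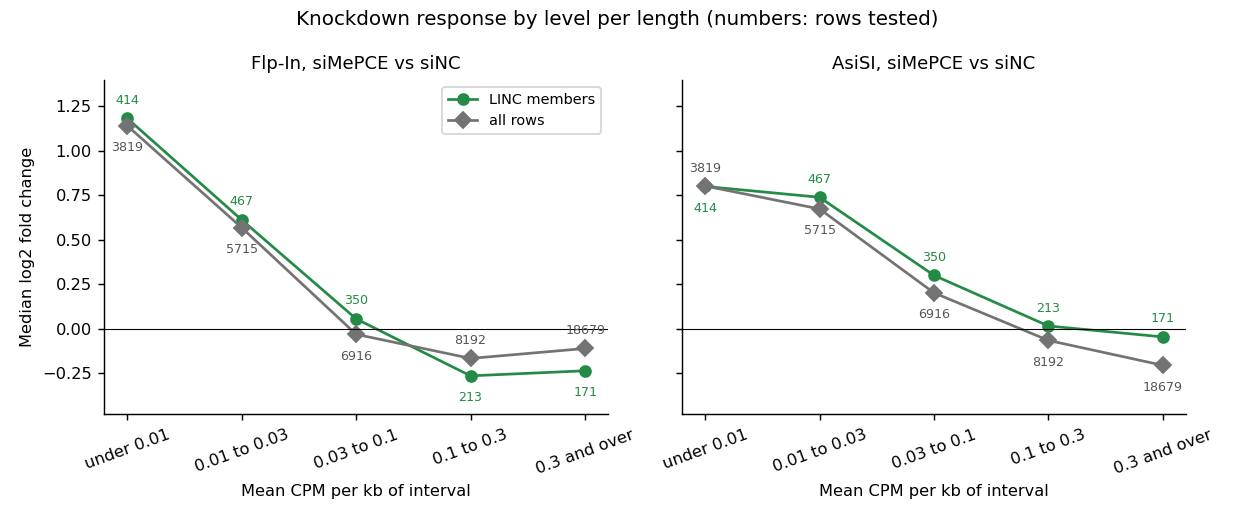
Median log2 fold change (siMePCE against siNC) of tested intervals in 5 classes of mean CPM per kb of interval, for LINC members and for all intervals, in Flp-In (left) and AsiSI (right); numbers beside points are intervals tested. Medians fall from 1.18 (Flp-In) and 0.80 (AsiSI) for LINC members in the sparsest class to -0.24 and -0.05 in the densest, and all intervals show the same order from sparse to dense at the ends.

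Long members and members far from coding genes were called higher more often. Of 467 members of 100 kb or more, 48.6% were called higher and 11.99% lower in Flp-In, and 45.2% and 5.57% in AsiSI. Of 746 members of 20 to 100 kb, 22.0% were called higher in Flp-In and 25.2% in AsiSI. The median log2 fold changes of these 2 classes were close: 0.61 and 0.56 in Flp-In, and 0.60 in both classes in AsiSI. The larger share called among the longest members thus did not go with a clearly larger median change. Of 103 members under 5 kb, 4.85% were higher and 17.5% lower in Flp-In, and 9.71% and 15.5% in AsiSI. All tested intervals under 5 kb were near these shares, with 7.89% and 16.95% in Flp-In and 7.24% and 14.97% in AsiSI. Among all tested intervals of 100 kb or more, 36.7% were higher and 23.2% lower in Flp-In, and 35.1% and 19.2% in AsiSI. Stand-alone members with a protein-coding gene within 5 kb had a median log2 fold change of -0.39 in Flp-In and 0.04 in AsiSI (50 members), whereas those 200 kb or more from one had 0.85 and 0.76 (102 members). Length, level and distance move together here and were not separated.

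Among called stand-alone members with a mean of at least 0.5 CPM, LINC00604 rose most in both lines. LINC00604 (ENSG00000250585) lies on chromosome 5 at 40240269 to 40267765 of hg19, plus strand, and spans 27.5 kb with up to 3 exons and a spliced length of 684 bases in GENCODE 29. It had 6 and 2 control counts against 219 and 246 after knockdown in Flp-In, and 36 and 30 against 626 and 640 in AsiSI. Every siMePCE library exceeded every siNC library. Counts of further members, where only values are listed, follow that order: replicates 1 and 2 of Flp-In siNC, then Flp-In siMePCE, and likewise for AsiSI. The rise was 49.1-fold in Flp-In (log2 5.62, SE 0.34, edgeR adjusted p = 2.14e-11) and 21.6-fold in AsiSI (log2 4.43, SE 0.24, adjusted p = 3.23e-12). It also stood 6.80-fold higher in AsiSI than in Flp-In under siNC. The nearest coding gene, TTC33, lies 245 kb away and had log2 fold changes of 0.61 and 0.92.

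LINC02818, the next largest Flp-In rise by that rule, lies on chromosome 1 at 179798719 to 179805627, minus strand, 3.48 kb from TOR1AIP2. Whether transcription running on from TOR1AIP2 adds to the counts of LINC02818 was not tested. LINC02818 had 29 and 30 control counts against 381 and 360 after knockdown in Flp-In, and 53 and 52 against 324 and 353 in AsiSI. Libraries of a group lay close together and the siRNA groups did not overlap. The rise was 10.8-fold in Flp-In (log2 3.44, SE 0.23, adjusted p = 9.25e-11) and 7.28-fold in AsiSI (log2 2.86, SE 0.22, adjusted p = 5.06e-10), beside 0.55 and 0.28 for TOR1AIP2.

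Some of the other strong risers, LINC02064 and LINC02661 among them, were long intervals far from any coding gene. LINC02064 (chromosome 5, 29304412 to 29396202) spans 91.8 kb, 1798 kb from CDH6, and had 30 and 54 control counts against 224 and 332 after knockdown in Flp-In, and 91 and 88 against 356 and 398 in AsiSI. It rose 5.73-fold in Flp-In and 4.76-fold in AsiSI. LINC02661 (chromosome 10, 110468297 to 110600444) spans 132 kb, 1024 kb from XPNPEP1, and had 49 and 72, 223 and 207, 114 and 131, and 502 and 553 counts in the same order of groups. Its rise was 3.07-fold and 4.88-fold. LINC02392 (chromosome 12, 90674671 to 90694751) went from 28 and 26 to 179 and 122 counts in Flp-In and from 50 and 49 to 116 and 154 in AsiSI, 4.81-fold and 3.08-fold. None of these groups overlapped within a line.

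LINC01283, on the X chromosome, had 6 and 4 control counts against 20 and 40 after knockdown in Flp-In, and 10 and 16 against 94 and 102 in AsiSI, and rose 5.12-fold and 8.49-fold. LINC02986, a short interval of 1.80 kb lying 15.0 kb from ZBTB10, went from 42 and 30 to 271 and 212 counts in Flp-In and from 62 and 103 to 259 and 235 in AsiSI. ZBTB10 itself had log2 fold changes of 1.37 and 1.36, beside 2.54 and 1.77 for LINC02986. LINC02338, LINC02699 and LINC02880 were called higher in both lines, with 2.16, 1.55 and 1.49 in Flp-In and 2.71, 2.21 and 2.56 in AsiSI on the log2 scale. Their Flp-In calls rested on few counts: without replicate 2 of Flp-In siMePCE the adjusted p was 0.219 for LINC02338, 0.0625 for LINC02699 and 0.262 for LINC02880. LINC02338 also lost the call without replicate 2 of Flp-In siNC (0.118), LINC02699 without replicate 1 of Flp-In siNC (0.107) and LINC02880 without either of them (0.0721 and 0.218), under DESeq2 (adjusted p = 0.0651) and with no filter on low counts (0.0578). In Flp-In alone LINC02118 (2.45) and LINC00383 (2.30) were among the 8 largest rises. LINC00383 lost its call without replicate 2 of Flp-In siMePCE (adjusted p = 0.0862) or replicate 1 of Flp-In siNC (0.0505).

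**Figure D3:**
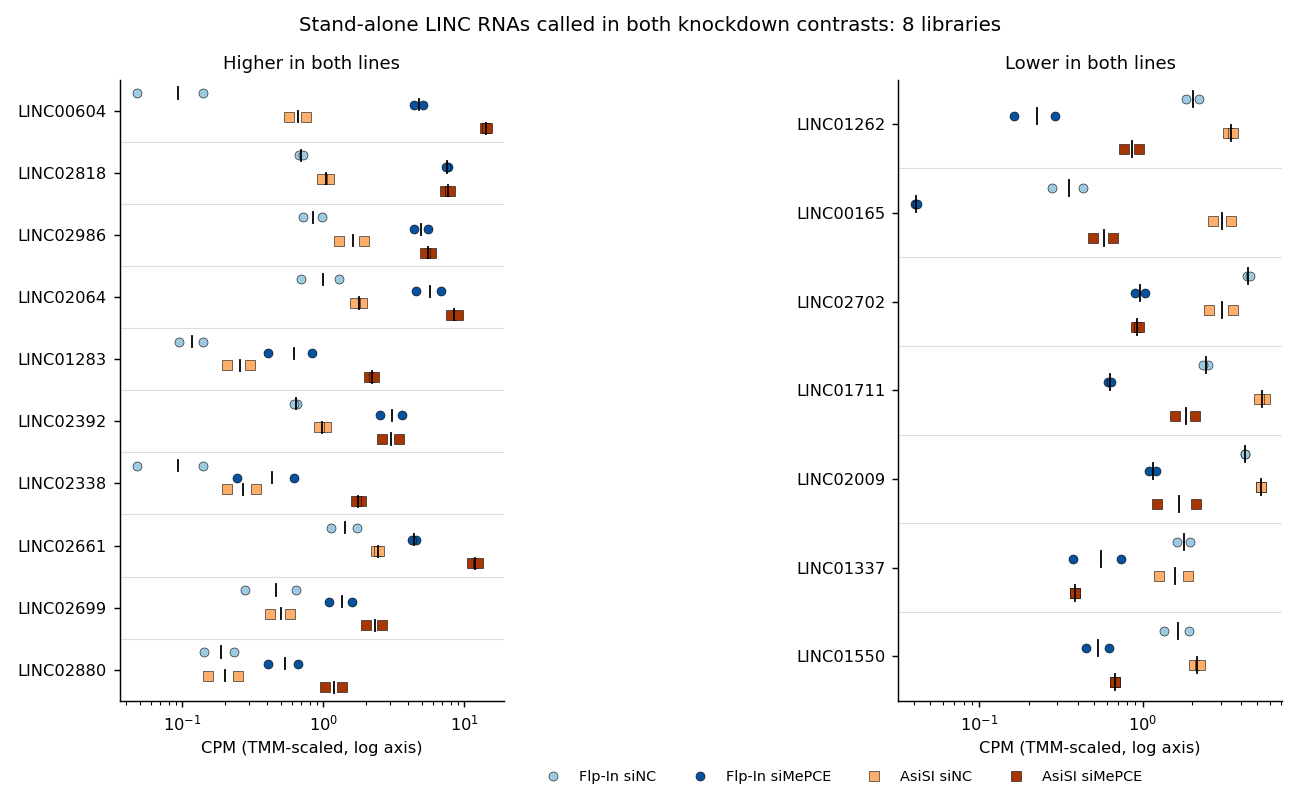
CPM on a log axis in each of the 8 libraries for stand-alone LINC members named for the size of their change and called in both knockdown contrasts; points are libraries and black bars the means of 2. The left panel has 10 members called higher and the right panel 7 called lower, and within each line no siMePCE point reaches the siNC points.

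Several of the stand-alone members that fell were under 3 kb long. LINC01262 (chromosome 4, 190579693 to 190582645, plus strand, 2.95 kb) had 94 and 77 control counts against 8 and 14 after knockdown in Flp-In, and 159 and 188 against 42 and 34 in AsiSI. The fall was 8.86-fold in Flp-In (log2 -3.15, SE 0.37, adjusted p = 3.52e-07). In AsiSI it was 4.02-fold (log2 -2.01, SE 0.30, adjusted p = 1.23e-05). LINC00165 (chromosome 21, 46414277 to 46415100, a single exon of 824 bases) had 12 and 18, 2 and 2, 129 and 181, and 29 and 22 counts in that order of groups, and was 8.19-fold and 5.32-fold lower. Few reads stand behind its Flp-In value. LINC01711 (chromosome 20, a single exon of 967 bases) went from 108 and 97 to 30 and 31 counts in Flp-In and from 268 and 271 to 93 and 70 in AsiSI, 3.86-fold and 2.92-fold lower.

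LINC02702 (chromosome 11, 116510139 to 116529012) had 185 and 188 control counts against 44 and 50 after knockdown in Flp-In, and 122 and 188 against 40 and 42 in AsiSI, and was 4.57-fold and 3.31-fold lower. LINC01550 (chromosome 14, 63.3 kb) was the longest of the stand-alone members named here that fell in both lines: it fell 3.05-fold in Flp-In and 3.15-fold in AsiSI, with 58 and 80 counts to 22 and 30, and 98 and 117 to 30 and 30. LINC01003, a member studied in cancers, had 46 and 46 control counts against 31 and 30 after knockdown in Flp-In (log2 -0.80, adjusted p = 0.142), and fell from 24 and 30 to 6 and 6 in AsiSI (3.91-fold).

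LINC02009, another falling member, lies beside a coding gene that fell as well. It spans 46458015 to 46465082 of chromosome 3 on the minus strand, 3.53 kb from CCRL2, an atypical chemokine receptor gene on the plus strand. It had 182 and 177 control counts against 54 and 58 after knockdown in Flp-In, and 252 and 278 against 54 and 94 in AsiSI, with log2 fold changes of -1.88 and -1.66 beside -1.50 and -1.45 for CCRL2. Across 48 stand-alone members within 5 kb of their nearest coding gene, the 2 log2 fold changes had a Pearson r of 0.590 in Flp-In and 0.389 in AsiSI. Within 20 kb of a coding gene that ends upstream on the same strand, r was 0.470 and 0.525 over 52 members. These are descriptions, since the points share libraries. In Flp-In both partners were called for 10 of the 48 members, in the same direction for 9, and in AsiSI for 5, in the same direction for 4. For the nearest coding gene within 50 kb (146 members) r was 0.335 and 0.321.

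For overlapped members the count may belong to the other gene. Among 1606 overlapped members with any count, 56.9% had a largest overlapping interval with at least as many counts, and 639 were overlapped on the same strand. Over 1108 members whose largest overlapping interval was tested, r between the 2 log2 fold changes was 0.654 in Flp-In and 0.641 in AsiSI. LINC01147 rose 8.49-fold in AsiSI, but GPR65, a proton-sensing receptor gene that overlaps it on the other strand, held 1.91 times its counts and had a log2 fold change of 3.98 there. LINC02593 fell by 3.31 in Flp-In and by 2.43 in AsiSI on the log2 scale, while SAMD11, with 5.01 times its counts, had -1.06 and -1.25. LINC02579 rose 7.80-fold in Flp-In (its AsiSI call was lost without replicate 2 of AsiSI siMePCE, 0.0942, or replicate 1 of AsiSI siNC, 0.106), and an overlapping interval held 53.7 times its counts. LINC02824 rose by log2 2.75 and 4.67, from 24 and 28 to 203 and 202 counts in Flp-In and from 14 and 32 to 590 and 444 in AsiSI, with LINC00944 at 15.9 times its counts.

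Other overlapped members had most of the counts of their locus, or shared it with another LINC interval or a pseudogene. LINC02646 (chromosome 10, 132011752 to 132281517, 270 kb) had 1035 and 1040 control counts against 90 and 131 after knockdown in Flp-In, and 1902 and 2402 against 432 and 562 in AsiSI, and its largest overlapping interval had 0.0386 times its counts. The fall was 10.8-fold in Flp-In (log2 -3.43, SE 0.17, adjusted p = 1.13e-12) and 3.81-fold in AsiSI. LINC01443 and LINC01444 on chromosome 18 overlap each other on opposite strands. LINC01443 fell from 1112 and 1088 to 186 and 158 counts in Flp-In and from 736 and 1255 to 84 and 103 in AsiSI, 7.38-fold and 9.30-fold. LINC01444 fell 5.83-fold and 10.1-fold, and without strand the 2 cannot be told apart. LINC02632 rose 7.95-fold in Flp-In and 12.9-fold in AsiSI, from 4 and 3 to 30 and 36 and from 8 and 12 to 118 and 112 counts, beside CUBNP1, an overlapping pseudogene with 2.07 times its counts and log2 fold changes of 2.28 and 3.01. LINC02412 fell in both lines from low counts, and its AsiSI call was lost without replicate 1 of AsiSI siNC (adjusted p = 0.0724).

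**Figure D4:**
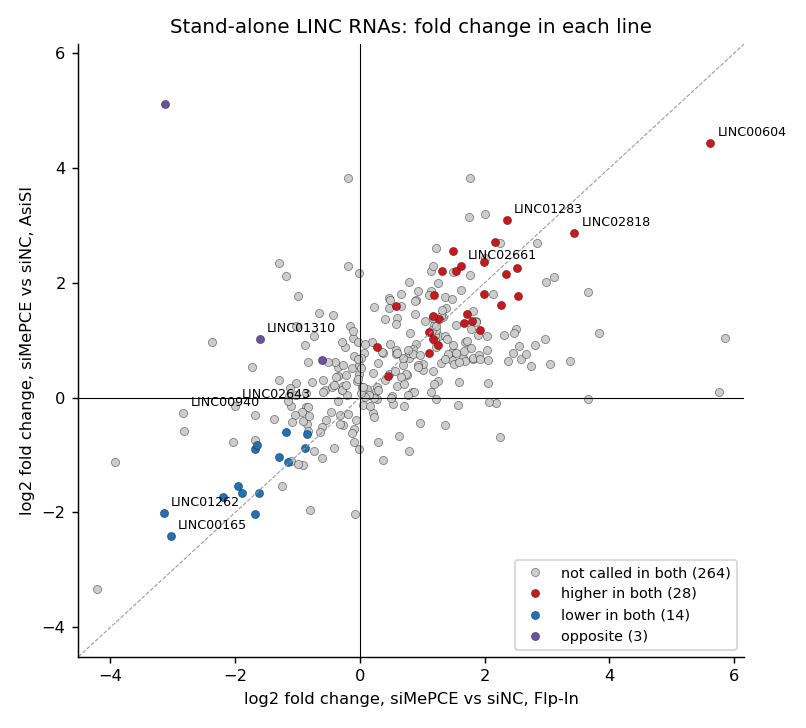
Log2 fold change (siMePCE against siNC) of the 309 tested stand-alone LINC members in Flp-In (x axis) and AsiSI (y axis), with the line of equal change dashed. Colours mark 28 members called higher in both lines, 14 called lower in both and 3 called in opposite directions, of which LINC01419 at the upper left has no count in AsiSI siNC, so its position there depends on the prior count.

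Of 43 LINC RNAs from a list of members studied in cancer and cell biology, 34 were tested, 6 of them stand-alone. The others were overlapped by another interval, so their counts and folds may belong in part to the other gene. Which interval overlaps each of them is not given below. In Flp-In 5 rose and 14 fell, and in AsiSI 7 rose and 12 fell, beside 18.1% higher and 22.8% lower of all intervals in Flp-In and 16.8% and 21.4% in AsiSI. Whether this list differs from the other members was not tested. LINC00963 had 5409 and 5035 control counts against 1685 and 1444 after knockdown in Flp-In, and 5323 and 5324 against 1684 and 1508 in AsiSI, and was 3.85-fold and 2.95-fold lower. LINC00511 stood at 117 ± 13.6 CPM (SD, n = 2) in Flp-In controls and 44.7 ± 0.0317 CPM after knockdown. In AsiSI its means were 28.7 ± 3.11 and 20.03 ± 0.298 CPM. The fall was 2.62-fold and 1.43-fold. LINC00342 fell 3.55-fold and 2.01-fold. LINC00662 was among those that rose, 1.37-fold and 1.38-fold, from 1808 and 1730 to 2710 and 2877 counts in Flp-In and from 3444 and 4046 to 4075 and 5008 in AsiSI. LINC00460, a stand-alone member, had 490 and 488, 645 and 720, 752 and 1042, and 809 and 746 counts, and neither knockdown passed the test (adjusted p = 0.124 and 0.929). LINC01419 had 30 and 32 control counts against 6 and 2 after knockdown in Flp-In, and none against 2 and 6 in AsiSI, so no fold is given for AsiSI.

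Of the 8 stand-alone members with the highest mean CPM, 2 rose and 1 fell in Flp-In, and 5 rose and 1 fell in AsiSI. LINC02476 (chromosome 7, 456 kb) averaged 251 ± 21.7 CPM in Flp-In controls and 243 ± 4.67 after knockdown, and 336 ± 10.5 and 410 ± 21.4 in AsiSI (SD, n = 2). Its rise in AsiSI was 1.22-fold, and it lost the call without replicate 2 of AsiSI siMePCE (adjusted p = 0.093). LINC01687, whose start region is printed above, had 2479 and 2267, 3006 and 3222, 3488 and 3134, and 5770 and 5718 counts, and LINC00308 on its other side 1503 and 1282, 2054 and 1834, 2078 and 1920, and 3114 and 3446. In AsiSI they rose 1.96-fold (adjusted p = 4.12e-08) and 1.85-fold (adjusted p = 6.39e-07). In Flp-In their log2 fold changes were 0.19 and 0.28, with adjusted p-values of 0.132 and 0.0466, and that call of LINC00308 was lost on leaving out each Flp-In library in turn (adjusted p of 0.0557 to 0.376) or replicate 1 of AsiSI siMePCE (0.0508), with no filter on low counts (0.0828) and with no robust option (0.0521). LINC02864 rose in both lines, 1.36-fold and 1.30-fold.

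Where the knockdown log2 fold change differed between the lines, it was more often the higher one in AsiSI. By the interaction contrast it was higher in AsiSI than in Flp-In for 91 members (5.63%) and lower for 12 (0.743%). The shares of all intervals were 2.60% and 1.81%. A higher value can be a larger rise or a smaller fall: LINC02646 fell in both lines, and less in AsiSI. Among stand-alone members the counts were 18 (5.83%) and 2 (0.647%). Without replicate 1 of Flp-In siNC 51 members (8 stand-alone) were higher and 1 lower. The lower count was 4 without replicate 2 of Flp-In siMePCE, and 7 without replicate 1 of AsiSI siMePCE or replicate 2 of AsiSI siNC. This contrast uses all 8 libraries and so shares them with the others.

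LINC01705 moved in opposite directions in the lines. It had 1434 and 1233 control counts against 1204 and 1070 after knockdown in Flp-In, and 936 and 1280 against 2894 and 3938 in AsiSI. It rose 3.51-fold in AsiSI and was 1.35-fold lower in Flp-In, a log2 difference of 2.25 (SE 0.19, adjusted p = 4.70e-07). The Flp-In fall alone lost its call without replicate 2 of Flp-In siMePCE (adjusted p = 0.107) or replicate 1 of Flp-In siNC (0.108). LINC02968, in the region that the X and Y chromosomes share, where reads can map to either copy, had 988 and 980, 1360 and 1282, 402 and 329, and 942 and 991 counts. It rose 2.98-fold in AsiSI against 1.16-fold in Flp-In (adjusted p of the difference 0.000152). LINC02643 and LINC00564 fell in Flp-In, 4.01-fold and 2.47-fold, and had log2 fold changes of -0.14 and 0.30 in AsiSI, with differences of 1.86 and 1.60.

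Under siNC the lines differed in 324 members higher in AsiSI (20.1%, against 14.4% of all intervals) and 158 lower (9.78%, against 15.2%). Of stand-alone members 47 (15.2%) were higher, near the 14.4% of all intervals, and 24 (7.77%) were lower. Without replicate 1 of Flp-In siNC 99 members (15 stand-alone) were lower. LINC01029 (chromosome 18, 75635981 to 75705715, 69.7 kb) stood furthest apart among stand-alone members with a mean of at least 0.5 CPM, with 33 and 52 control counts in Flp-In against 5072 and 5833 in AsiSI (log2 6.75, SE 0.21, adjusted p = 1.60e-14). After knockdown it had 50 and 101 counts in Flp-In and 3165 and 2859 in AsiSI, so it stayed high in AsiSI under both siRNAs. LINC02663 (chromosome 10, 119 kb) had 14 and 14 control counts in Flp-In against 480 and 539 in AsiSI, a 30.4-fold difference. LINC02068, 28.8 kb from TNFSF10, had 22 and 8 against 331 and 237 counts, 16.0-fold. On the lower side LINC00235 had 46 and 49 control counts in Flp-In against 12 and 6 in AsiSI (6.15-fold), and LINC01429 had 562 and 648 against 190 and 163 (4.06-fold).

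**Figure D5:**
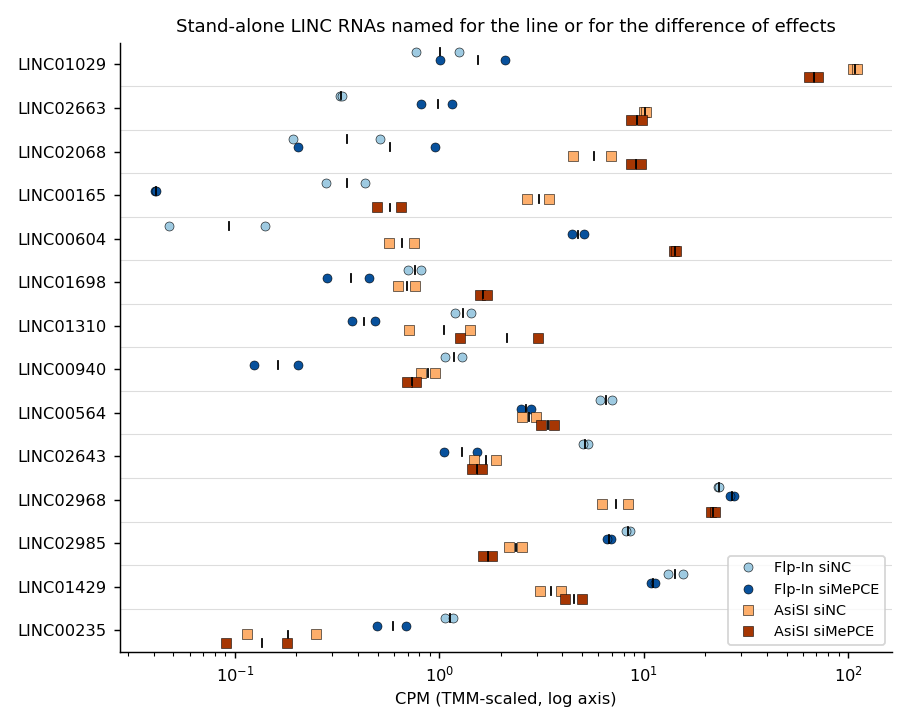
CPM on a log axis in each of the 8 libraries for 14 stand-alone LINC members named for the difference between lines or between knockdown effects, ordered by AsiSI against Flp-In under siNC; black bars are means of 2 libraries. LINC01029 at the top separates the lines under both siRNAs, and LINC00564 and LINC02643 drop from Flp-In siNC to Flp-In siMePCE.

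Genes that end transcription and remove such RNAs were measured from lists. Of 26 tested genes of the nuclear exosome and its adaptors, 9 rose and 6 fell in Flp-In, and 4 rose and 12 fell in AsiSI (medians 0.04 and -0.23). Of all tested coding genes 20.6% were higher and 34.3% lower in Flp-In, and 16.98% and 35.1% in AsiSI, which is the background for these lists. In the exosome list 34.6% and 23.1% were called in Flp-In and 15.4% and 46.2% in AsiSI. RBM7, an RNA-binding part of an exosome adaptor, rose by log2 0.63 and 0.71, ZCCHC7, of another adaptor, by 0.66 and 0.28, and DIS3, a catalytic subunit, rose by 0.48 in Flp-In (0.20 in AsiSI, not called). EXOSC10, another catalytic subunit, fell by 0.51 and 0.61, and PABPN1, a nuclear poly(A)-binding protein, fell by 0.86 and 1.14. Of 15 Integrator genes, whose complex cleaves RNA near starts, 2 rose and 5 (33.3%) fell in Flp-In, near the background, and 1 rose and 11 (73.3%) fell in AsiSI. INTS1, the largest subunit, fell by 1.29 and 1.37, and INTS11, the RNA-cleaving subunit, by 0.84 and 1.06. Of 22 genes of cleavage, polyadenylation and termination, 7 rose and 7 (31.8%) fell in Flp-In and 5 rose and 9 (40.9%) fell in AsiSI, falls near the background. CPSF1 fell by 1.25 and 1.52, whereas SCAF8, a factor that restrains early termination, rose by 0.67 and 0.53. The part of these genes in the LINC counts was not tested.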

How the data were processed

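Total RNA was sequenced from 8 libraries. The authors deposited 1 table of read counts per gene interval on hg19. Per the submitters' processing notes, Trim Galore, FastQC, STAR, SAMtools and featureCounts were used, with versions not given in the sources used here. Every length in the table equals end minus start plus 1, so counts cover introns; whether strand was used, and how reads in overlapping intervals were assigned, is not given. Of the counts from 1 to 20 in the table, 74.5% were even, and 87.9% among stand-alone members. Whether the mates of a read pair were counted singly is not given, so low counts may stand for fewer fragments than printed. Groups came from the titles and characteristics in the labels.

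From the deposited counts, intervals were filtered by filterByExpr, scaled by TMM and fitted with edgeR 4.0.16 (R 4.3.3) as 4 group means over 8 libraries. The quasi-likelihood test with the robust option gave p-values, adjusted by Benjamini-Hochberg over all 43321 tested intervals and called under 0.05. All p-values printed are from this test unless DESeq2 1.42.0 is named. CPM values and ± SD were computed here, and depth limits members of few counts most. On simulated counts the scripts were tested before use. Figures used Python 3.11.15 and matplotlib 3.10.9.

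Stand-alone members were named by size of change (called, mean of at least 0.5 CPM, groups not overlapping; up to 8 each way per knockdown, 5 for the difference, where groups had to be apart in 1 line only, and the line), the 8 of highest CPM by level, up to 4 overlapped members each way, and the studied LINC RNAs. Members and lists were chosen with earlier results of these data known. Alternatives were DESeq2, other scaling, no filter, only the libraries compared, a replicate block, stricter and looser definitions of stand-alone, each library left out and, added after seeing the data, halved counts and no robust option. The neighbour of 1 named member is not reported here.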

Additional observations from a re-analysis of the deposited data

Results flagged for a closer look

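The knockdown effect differed between the lines, by the interaction contrast of edgeR's quasi-likelihood test, in 91 members with a higher log2 fold change in AsiSI and 12 with a lower one. A higher value can be a larger rise or a smaller fall. LINC01419, one of the 91, has no count in AsiSI siNC, so its difference depends on the prior count and is not given. The other named members among them are given as the log2 effect in AsiSI minus that in Flp-In. Calls that held under every alternative run were those of LINC00511 (0.87), LINC00564 (1.60), LINC01687 (0.78), LINC01705 (2.25), LINC02643 (1.86), LINC02646 (1.505) and LINC02968 (1.36).

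The other differences lost the call in at least 1 alternative. LINC00308 (0.61) lost it without replicate 2 of AsiSI siMePCE, AsiSI siNC or Flp-In siMePCE or replicate 1 of Flp-In siNC (adjusted p of 0.0688 to 0.154). LINC00342 (0.82) lost it without replicate 1 of AsiSI siMePCE (0.0517) or Flp-In siNC (0.0801). LINC01310 (2.62) lost it without replicate 1 of AsiSI siMePCE (0.0861) or replicate 2 of Flp-In siMePCE (0.0526). LINC02824 (1.92) lost it without replicate 2 of Flp-In siNC (0.0559). LINC02315 (0.58) lost it without replicate 1 of Flp-In siMePCE (0.0663) or Flp-In siNC (0.0957), and LINC02885 (0.69) without replicate 2 of Flp-In siMePCE (0.0556) or replicate 1 of Flp-In siNC (0.155). LINC00319 (2.81) lost it on leaving out 1 of 5 libraries (adjusted p of 0.0543 to 0.0888). LINC00940 (2.56), LINC01638 (1.02) and LINC01698 (2.27) each lost it on leaving out 1 of 4 libraries, with adjusted p of 0.0536 to 0.0899, 0.0591 to 0.167 and 0.0619 to 0.113. Those with a lower effect in AsiSI were LINC01029 (-1.30), which DESeq2 did not call (adjusted p = 0.230) and which was lost on leaving out 1 of 4 libraries (0.0514 to 0.237), and LINC02663 (-1.70), lost without replicate 2 of Flp-In siMePCE (0.0540) or replicate 1 of Flp-In siNC (0.0597).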

How the results depend on the processing

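With 2 libraries a group, counts moved with single libraries, and a group left with 1 library is assumed to vary like the others. Leaving out 1 library at a time gave 227 to 448 members higher (29 to 65 stand-alone) and 163 to 237 lower (26 to 36) in Flp-In, and 304 to 464 higher (44 to 70) and 100 to 144 lower (13 to 20) in AsiSI. For the difference it gave 51 to 97 higher (8 to 17) and 1 to 11 lower (0 to 2), for the line under siNC 247 to 342 higher (33 to 51) and 99 to 169 lower (15 to 26), and in both lines 159 to 267 higher and 78 to 93 lower. Requiring no other interval within 5 kb left stand-alone counts of 41 higher and 12 lower in Flp-In, 43 and 5 in AsiSI, 9 and 1 for the difference and 30 and 9 for the line, since fewer members qualify. Allowing overlap on the other strand gave 254 and 135, 287 and 93, 53 and 7, and 191 and 88. DESeq2 called 1 stand-alone member lower in the difference. The cause of these shifts was not tested. With the replicate block 20 members were lower in the difference. Libraries with the same replicate number deviated together weakly (correlation of deviations 0.043 to 0.155). These values do not settle whether replicate numbers pair the samples. Using only the libraries compared gives no value for the difference, which needs all 8. Of 2781 values of the 83 named members under alternatives, 2624 kept the call, 157 lost it and 0 changed sign. Counted by member and contrast, 115 of 165 calls held under every alternative, and the others were lost at least once.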
